A study of Brachypodium distachyon with 9 samples.

Results

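The 100 nuclear protein-coding genes with the most reads in wild type were described in droughted shoots of Brachypodium distachyon 21-3, a temperate wild grass that serves as a laboratory relative of wheat and barley. They were selected on wild type abundance, as the 100 rows with the highest mean over the 3 wild type libraries in the authors' normalized table, of 21593 eligible rows that are nuclear, protein-coding genes. The table holds 28454 features in all. LOC100841406 and LOC100832168, which would have ranked 60 and 117 by the same mean, were left out. The wild type means of the genes at ranks 99 and 100, LOC100821105 and LOC100834468, were 9789 and 9668 normalized counts, and those just outside, LOC100840579 and LOC100842478, were at 9618 and 9578. Those wild type values chose the members and are given as a description.

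All 3 genotypes were grown alike and went 15 days without water before the whole aboveground shoot was harvested at the 5-leaf stage. The labels give 18 days of growth at 14 h light and 10 h dark, and 16 h light and 8 h dark during drought. They also give 20 °C in light, 18 °C in dark and harvest 3 h after dawn, the same for all 9 libraries. Wild type was compared with gf14h-1, a CRISPR/Cas9 mutant of a gene for the 14-3-3 protein GF14h, and with hdac19-2b, a CRISPR/Cas9 mutant of the gene for histone deacetylase 19. Per the labels, each mutant is homozygous for an early stop codon in exon 1, in the background of the wild type, and each genotype has 3 biological replicates. Each mutant is represented by 1 allele, and watered plants were not analysed here, so no value below describes a response to drought.

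In a green shoot, a small number of nuclear genes usually supplies a large part of the polyadenylated RNA. In grasses these typically include genes for light-harvesting and carbon-fixing proteins, which are made in the cytosol and imported into chloroplasts, and genes for the translation machinery. 14-3-3 proteins bind phosphorylated client proteins, and histone deacetylases remove acetyl groups from histones. None of the 100 members carries more than a locus number as its name in the annotation used here (0 of 100), so no function is given for any of them. That annotation does not name the GF14h and HDAC19 genes either, so the transcripts of both targeted genes were not checked.

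Library totals ran from 3302805 to 36632981 counts, with gf14h-1 replicate 3 the shallowest. The smallest count of any member in any library was 966, so counting error was small beside the spread between replicates. The shoot label was checked on 7 chloroplast genes of photosynthesis. All were detected in every library, from 9.88 to 32.0 CPM (counts relative to library size, scaled by TMM) for psaA and from 2388 to 6306 CPM for rbcL, the large subunit of Rubisco. Libraries were made after poly(A) selection, so chloroplast levels reflect what passed that step. Besides LOC100841406, 6 rows that are not nuclear protein-coding genes lay above the threshold, comprising rbcL at a wild type mean of 60115 normalized counts, 4 chloroplast ribosomal RNA rows and the long non-coding RNA LOC106865875.

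The members held between 11.0% and 18.5% of all counts in a library. Wild type replicates 1, 2 and 3 gave 14.6%, 14.0% and 14.3%, a mean of 14.3% ± 0.309 (SD, n = 3). The gf14h-1 libraries gave 11.7%, 13.2% and 18.5%, a mean of 14.5% ± 3.54 (SD, n = 3). The hdac19-2b libraries gave 12.2%, 11.7% and 11.0%, a mean of 11.7% ± 0.602 (SD, n = 3). All 3 hdac19-2b libraries lay below all 3 wild type libraries, whereas the gf14h-1 libraries spanned both groups. Wilson 95% intervals of these shares were 0.0227 to 0.0837 percentage points wide and cover counting error only.

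The comparison of both mutants with each other used no library that chose the members. The share was 2.81 percentage points higher in gf14h-1 than in hdac19-2b, with an exact two-sided permutation p of 0.2, where 3 against 3 libraries cannot go below 0.1. Without gf14h-1 replicate 3 the difference was 0.814 points. Because a share in a mutant is taken over genes chosen in wild type, the share of each library's own 100 highest rows was computed as well. It was 14.5% ± 0.344 in wild type, 15.2% ± 3.68 in gf14h-1 and 12.4% ± 0.513 in hdac19-2b (SD, n = 3).

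**Figure D1:**
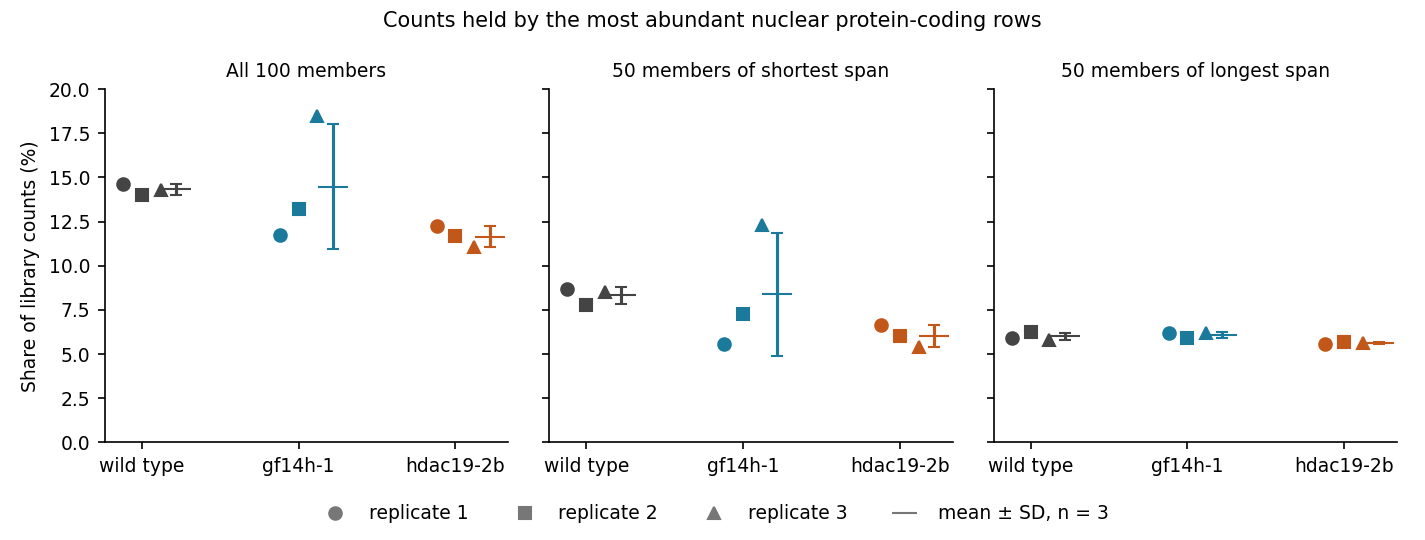
Share of library counts (%, axis from 0) held by all 100 members, by the 50 with the shortest gene span and by the 50 with the longest. Points are libraries, with the shape giving the replicate, and bars are the mean ± SD of 3. The hdac19-2b libraries lie below wild type in the first panel, and gf14h-1 replicate 3, at 18.5%, stands above every other library.

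The counts were concentrated at the top of the list. The 10 most abundant members held 3.81% ± 0.340 of wild type counts, 4.21% ± 1.68 in gf14h-1 and 2.75% ± 0.261 in hdac19-2b (SD, n = 3). The remaining 90 held 10.5% ± 0.119, 10.3% ± 1.86 and 8.90% ± 0.402. LOC100845819 alone, on chromosome 3 (26815157 to 26816096, minus strand), took 0.695% of wild type counts. It was the highest member in all 3 wild type libraries and in gf14h-1 replicates 2 and 3, while LOC100842305, on chromosome 1 (9676773 to 9677869, minus strand), led in gf14h-1 replicate 1 and in all 3 hdac19-2b libraries.

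LOC100845819 reached 7890, 5321 and 8240 CPM in wild type replicates 1 to 3, 3531, 6502 and 14917 CPM in gf14h-1, and 4344, 3249 and 2012 CPM in hdac19-2b. Every hdac19-2b library was below every wild type library, and gf14h-1 overlapped with both. Its highest library exceeded its lowest 7.41-fold, the widest range among the 100 members. Its log2 fold change was 1.38 ± 0.48 (SE) for gf14h-1 against hdac19-2b, with 0.447 as the Benjamini-Hochberg adjusted p of the edgeR quasi-likelihood test over all 23898 features tested.

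LOC100842305 did not share the low values of LOC100845819 in hdac19-2b. It had 6589, 4966 and 4540 CPM in the wild type libraries, 4650, 4567 and 9483 CPM in gf14h-1, and 5815, 6552 and 5195 CPM in hdac19-2b. All 3 groups overlapped, and the log2 fold change of gf14h-1 against hdac19-2b was 0.09 ± 0.31 (SE), which reversed to -0.34 without gf14h-1 replicate 3.

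LOC100840557, on chromosome 4 (7558564 to 7559868, minus strand), had 3826, 3772 and 4396 CPM in the wild type libraries, 2783, 4260 and 8063 CPM in gf14h-1, and 3347, 2388 and 1941 CPM in hdac19-2b. The hdac19-2b libraries were below wild type without overlap, and the lowest gf14h-1 library lay inside the hdac19-2b range. LOC100839285, on chromosome 2 (58810097 to 58810769, plus strand), had 3869, 2031 and 4722 CPM in the wild type libraries, 3155, 5417 and 6735 CPM in gf14h-1, and 2819, 2688 and 2246 CPM in hdac19-2b. There the gf14h-1 and hdac19-2b libraries did not overlap, but wild type overlapped with both. Its log2 fold change of 0.98 ± 0.35 (SE) between the mutants had a Benjamini-Hochberg adjusted p of 0.455 (edgeR).

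LOC100830871, on chromosome 4 (30980810 to 30981596, plus strand), had 4615, 2964 and 2966 CPM in the wild type libraries, 1849, 1641 and 6535 CPM in gf14h-1, and 2866, 3216 and 3399 CPM in hdac19-2b. In gf14h-1, replicate 3 was the highest of all 9 libraries and replicates 1 and 2 were the lowest. Its log2 fold change between the mutants, 0.08 ± 0.47 (SE), became -0.85 without gf14h-1 replicate 3. LOC100827496, on chromosome 3 (16014319 to 16016970, plus strand), had 3143, 3282 and 3658 CPM in the wild type libraries, 2278, 3746 and 7018 CPM in gf14h-1, and 2329, 1778 and 1291 CPM in hdac19-2b. Only the lowest gf14h-1 library fell inside the hdac19-2b range, and the log2 fold change was 1.27 ± 0.38 (SE), at a Benjamini-Hochberg adjusted p of 0.397 (edgeR).

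LOC100829841, on chromosome 4 (7953212 to 7954204, plus strand), separated the mutants completely. It had 3394, 3114 and 3386 CPM in the wild type libraries, 2656, 3314 and 7360 CPM in gf14h-1, and 2516, 1860 and 1666 CPM in hdac19-2b. Between gf14h-1 and hdac19-2b the log2 fold change was 1.14 ± 0.36 (SE), at a Benjamini-Hochberg adjusted p of 0.414 (edgeR). LOC100825082, on chromosome 1 (2510086 to 2514099, minus strand), varied least among the first 10, by 1.64-fold. It had 2696, 3000 and 2760 CPM in the wild type libraries, 3317, 3189 and 2555 CPM in gf14h-1, and 2050, 3031 and 2022 CPM in hdac19-2b, with overlap between all groups.

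**Figure D2:**
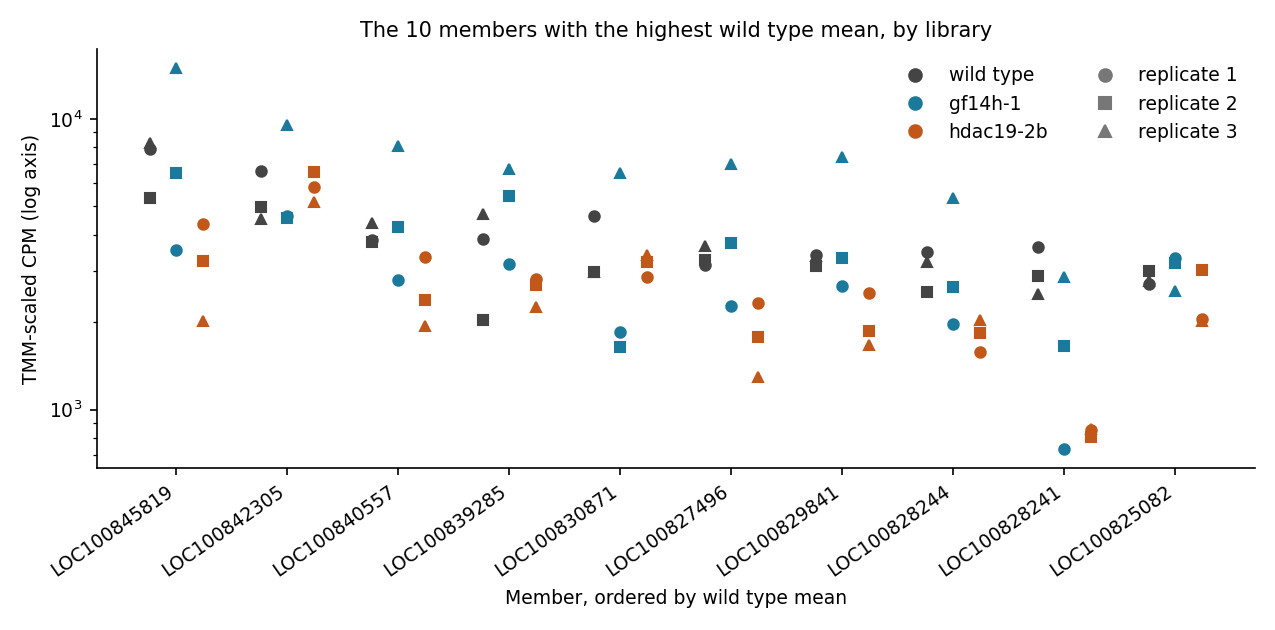
TMM-scaled CPM (log axis) of the 10 members with the highest wild type mean, by library. Colour gives the genotype and shape the replicate. gf14h-1 replicate 3 is the highest library for 8 of the 10, and LOC100828241 lies near 838 CPM in all 3 hdac19-2b libraries.

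The lists of the 100 highest rows overlapped in part between genotypes, which is given as counts with no test. Among the 100 highest rows of gf14h-1 were 87 members, and among those of hdac19-2b 75. In all 3 genotypes 69 members held a place, and 7 did so in neither mutant. By single library, the top 100 held 86, 89 and 89 members in wild type replicates 1 to 3, which chose the members. It held 75, 79 and 78 in the gf14h-1 libraries and 75, 65 and 70 in the hdac19-2b libraries. In the top 100 of each of the 9 libraries were 41 members, and 187 rows were in the top 100 of at least 1. Of the first 10 members, 9 were in the top 10 of gf14h-1 and 6 in that of hdac19-2b.

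The member that ranked lowest in hdac19-2b was LOC100842091, on chromosome 5 (15762876 to 15764131, minus strand), at rank 81 in wild type, 186 in gf14h-1 and 339 in hdac19-2b. It had 757, 921 and 819 CPM in the wild type libraries, 302, 474 and 812 CPM in gf14h-1, and 366, 291 and 304 CPM in hdac19-2b. The hdac19-2b libraries were all below wild type, and the gf14h-1 libraries reached from one group to the other. In gf14h-1 the lowest rank was 230, for LOC100821105, on chromosome 2 (34048395 to 34054386, plus strand), which stood at 99 in wild type and 83 in hdac19-2b. Among rows that entered, LOC100822378 moved from rank 239 in wild type to 37 in hdac19-2b, from a mean of 435 CPM to 1077 CPM, with a Benjamini-Hochberg adjusted p of 0.194 (edgeR). LOC100842091, LOC100821105 and LOC100822378 were named after their values were seen.

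Between gf14h-1 and hdac19-2b, edgeR's quasi-likelihood test called none of the members at a Benjamini-Hochberg adjusted p under 0.05 (0 of 100), where 0.0167% of all features tested were called, and the smallest adjusted p of a member was 0.393. At an unadjusted p under 0.05, 37 members were higher in gf14h-1, against 4.53% of all features tested, and 1 was lower, against 4.49%. The DESeq2 Wald test, which called 1.11% of features, called 4 members, LOC100827496, LOC100841831, LOC100841796 and LOC100842929, all higher in gf14h-1. The log2 fold change was above 0 for 81 of the 100, where 49.8% of all features were, with a median of 0.42, against -0.00188 over all features tested. Libraries did not overlap for 18 members that were higher in gf14h-1 and for 4 that were lower, where the same held for 6.22% and 7.82% of all features.

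That count depended on single libraries. Without gf14h-1 replicate 3, 12 members were higher at an unadjusted p under 0.05, against 6.35% of features, and 6 were lower, against 8.79%, with a median of 0.21. Without hdac19-2b replicate 2 or 3, 20 and 14 members passed in either direction, against 38 with all libraries, where 5.75%, 6.7% and 9.03% of features did. The next 100 genes in wild type rank showed a smaller difference with all libraries, with 17 higher, 0 lower and a median of 0.17. In bulk shoots, fewer cells of a type and less RNA of a gene per cell cannot be told apart.

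The widest gap between the mutants was that of LOC100842929, on chromosome 1 (12230374 to 12231590, minus strand), which had 1430, 1563 and 1693 CPM in the wild type libraries, 504, 1373 and 1848 CPM in gf14h-1, and 589, 390 and 426 CPM in hdac19-2b. gf14h-1 replicate 1 fell inside the hdac19-2b range while the other 2 gf14h-1 libraries were more than 2-fold above it. The log2 fold change was 1.41 ± 0.40 (SE), at a Benjamini-Hochberg adjusted p of 0.393 (edgeR). In the other direction, LOC100837414, on chromosome 1 (49082452 to 49087858, plus strand), had 1319, 882 and 648 CPM in the wild type libraries, 743, 698 and 919 CPM in gf14h-1, and 1207, 1319 and 1548 CPM in hdac19-2b. Here all gf14h-1 libraries were below all hdac19-2b libraries, by 0.79 ± 0.28 (SE) on the log2 scale, and wild type overlapped with both. It was the only member lower in gf14h-1 at an unadjusted p under 0.05, and its Benjamini-Hochberg adjusted p was 0.447 (edgeR).

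LOC112270107, on chromosome 1 (35956716 to 35965929, minus strand), was likewise lower in gf14h-1 without overlap. It had 1080, 1594 and 1552 CPM in the wild type libraries, 1136, 1397 and 455 CPM in gf14h-1, and 1723, 1601 and 1613 CPM in hdac19-2b. gf14h-1 replicate 3 was the lowest of the 9 libraries for this gene, which it was for 5 members, and the log2 fold change of -0.72 ± 0.36 (SE) had a Benjamini-Hochberg adjusted p of 0.598 (edgeR).

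**Figure D3:**
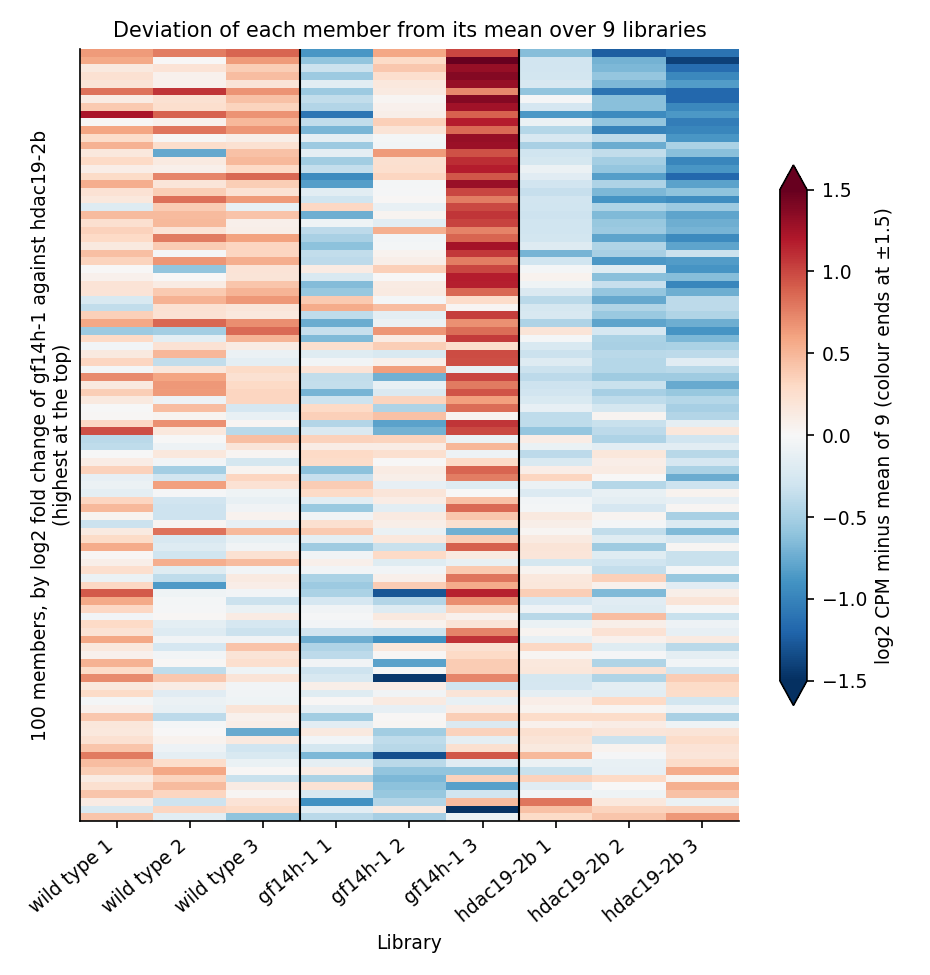
Deviation of each of the 100 members (rows, ordered by the log2 fold change of gf14h-1 against hdac19-2b) from its own mean over the 9 libraries (columns), in log2 CPM, with the colour ending at 1.5 on either side. The column of gf14h-1 replicate 3 is the highest of the 9 for 62 members, and the hdac19-2b columns are below the mean for most of the upper rows.

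Against wild type, whose libraries chose the members, the values for hdac19-2b are given as a description. No member was called by edgeR at a Benjamini-Hochberg adjusted p under 0.05 (0 of 100, with 0.272% of all features called), and 11 were called by DESeq2, with 2.24% of features. At an unadjusted p under 0.05, 28 members were lower in hdac19-2b and 0 higher, where 4.61% and 2.59% of all features were. The median log2 fold change was -0.38 and 14 members lay above 0, where 52.0% of all features did. Among 100 genes chosen by the mean over all 9 libraries the median was -0.23, with 21 above 0, and among the next 100 genes in wild type rank it was -0.12, with 31 above 0. In 42 members all hdac19-2b libraries were below all wild type libraries, and in 2 all were above, where 8.48% and 8.35% of all features were so placed. At least a 2-fold lower level was fitted for 12 members and a 2-fold higher level for none (0 of 100). The share of all features at that size is not given here, so these counts have no background beside them. Counted in either direction, the 28 became 16 without wild type replicate 2, and 12 and 11 without hdac19-2b replicates 2 and 3. In those fits 6.18%, 4.69% and 6.54% of features passed in either direction, against 7.19% with all libraries. The 28 became 44 without gf14h-1 replicate 3, where 6.31% of features passed as lower. That library enters this comparison only through the shared spread, the scaling and the filter. Without gf14h-1 replicate 1 or 3, edgeR called 5 and 6 members at a Benjamini-Hochberg adjusted p under 0.05, against 0.439% and 0.767% of features.

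Among those 12, LOC100841831, on chromosome 2 (14360197 to 14361220, minus strand), had the smallest adjusted p. It had 1878, 2254 and 1705 CPM in the wild type libraries, 733, 1175 and 1763 CPM in gf14h-1, and 711, 495 and 473 CPM in hdac19-2b. hdac19-2b lay below both other genotypes without overlap, and gf14h-1 reached up into the wild type range with replicate 3. Its log2 fold change for hdac19-2b against wild type was -1.80 ± 0.33 (SE), at a Benjamini-Hochberg adjusted p of 0.0543 (edgeR), and from 3.82e-06 to 0.334 over 16 settings. Against hdac19-2b, gf14h-1 was higher by 1.13 ± 0.32 (SE).

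The largest fitted difference from wild type was that of LOC100828241, on chromosome 4 (42331987 to 42333096, plus strand). It had 3631, 2875 and 2489 CPM in the wild type libraries, 733, 1649 and 2861 CPM in gf14h-1, and 852, 807 and 855 CPM in hdac19-2b. The 3 hdac19-2b libraries lay close together (SD 26.8 CPM) and below wild type, whereas the gf14h-1 libraries ran from below that level to the wild type range. The log2 fold change of hdac19-2b against wild type was -1.84 ± 0.41 (SE), at a Benjamini-Hochberg adjusted p of 0.113 (edgeR). Over 16 settings that adjusted p ran from 0.000375 (DESeq2 Wald test) to 0.484. By rank, LOC100828241 stood at 9 in wild type, 25 in gf14h-1 and 51 in hdac19-2b.

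Few members stood higher in hdac19-2b. The largest fitted rise over wild type was that of LOC100837414, at a log2 fold change of 0.52 ± 0.28 (SE), with overlap. LOC100846426, on chromosome 3 (939282 to 941884, plus strand), had 2370, 2130 and 1252 CPM in the wild type libraries, 2351, 1475 and 2699 CPM in gf14h-1, and 2500, 2398 and 2422 CPM in hdac19-2b. The hdac19-2b libraries were just above wild type without overlap, at a log2 fold change of 0.35 ± 0.30 (SE), and lay inside the gf14h-1 range. LOC112270107 was the other member above wild type without overlap.

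A pair of members lay close together on chromosome 4, with 3420 bases between them on the minus strand. LOC100828244 (47767253 to 47768061) had 3496, 2531 and 3209 CPM in the wild type libraries, 1974, 2651 and 5335 CPM in gf14h-1, and 1580, 1828 and 2037 CPM in hdac19-2b. Its neighbour LOC100827939 (47762782 to 47763832) had 1358, 1000 and 1432 CPM in the wild type libraries, 660, 916 and 1726 CPM in gf14h-1, and 2167, 1386 and 1167 CPM in hdac19-2b. The first was below wild type in hdac19-2b without overlap, and the second overlapped wild type there, with log2 fold changes of -0.76 ± 0.34 (SE) and 0.32 ± 0.36 (SE). Whether the pair shares sequence, and so reads, was not analysed here.

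For gf14h-1 against wild type, no member was called by edgeR at a Benjamini-Hochberg adjusted p under 0.05 or by DESeq2 (0 of 100 each, with 0.146% of all features called by edgeR and 1.32% by DESeq2). At an unadjusted p under 0.05, 1 member was lower, where 4.15% of features were, and 0 were higher, where 3.41% were. The median log2 fold change was 0.08 and 56 members lay above 0, where 49.6% of all features did. Libraries did not overlap for 3 members that were higher and 4 that were lower, where 5.18% and 6.68% of all features did not. The direction of the median did not hold across libraries. Without wild type replicate 2 it was -0.01, and the count at an unadjusted p under 0.05 was 0, where 5.56% of features passed. Without gf14h-1 replicate 1 or 2, or wild type replicate 3, that count was 7, 0 and 4, where 9.45%, 8.87% and 6.79% of features passed. Without gf14h-1 replicate 3 the median was -0.31, 76 members lay below 0, and 24 were lower at an unadjusted p under 0.05, where 8.46% of features were. The comparisons of both mutants with wild type share those 3 wild type libraries.

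The members furthest above wild type in gf14h-1 were LOC100826328, LOC100839285 and LOC100830542. LOC100826328, on chromosome 2 (58419952 to 58421031, plus strand), had 817, 539 and 933 CPM in the wild type libraries, 881, 1044 and 1620 CPM in gf14h-1, and 797, 713 and 440 CPM in hdac19-2b. Its lowest gf14h-1 library lay inside the wild type range and above all hdac19-2b libraries, and the log2 fold change against wild type was 0.63 ± 0.32 (SE). LOC100830542, on chromosome 1 (48817768 to 48818666, minus strand), was at 959, 594 and 695 CPM in the wild type libraries, 746, 813 and 1506 CPM in gf14h-1, and 672, 570 and 686 CPM in hdac19-2b, again with overlap between gf14h-1 and wild type only through its lower libraries. Furthest below, beside LOC100828241 and LOC100841831, was LOC100833360, on chromosome 1 (1698911 to 1704663, minus strand), at 835, 968 and 658 CPM in the wild type libraries, 701, 429 and 431 CPM in gf14h-1, and 514, 593 and 950 CPM in hdac19-2b, and all 3 groups overlapped.

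Across the 9 libraries, 29 members varied by less than 2-fold between the lowest and the highest value, 50 by 2- to 4-fold and 21 by 4-fold or more. The median SD of log2 CPM within a genotype, pooled over the 3 genotypes, was 0.43 for the members, 0.34 for the next 100 genes in rank and 0.44 for all features tested, most of which have far fewer reads. By genotype, the median SD over the members was 0.25 in wild type, 0.60 in gf14h-1 and 0.26 in hdac19-2b. Without gf14h-1 replicate 3 the value in that mutant was 0.28. Over all features tested the medians were 0.30, 0.54 and 0.28, with 0.29 in gf14h-1 without replicate 3. For the next 100 genes in rank they were 0.30, 0.39 and 0.23, with 0.25 in gf14h-1 without replicate 3. The wild type values of the members and of the next 100 genes are descriptions, since those libraries chose both sets.

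The steadiest members came from the middle of the list. LOC100843442, on chromosome 2 (51833306 to 51836630, plus strand), had 1223, 1088 and 1340 CPM in the wild type libraries, 1064, 1072 and 1266 CPM in gf14h-1, and 1211, 1191 and 1112 CPM in hdac19-2b. Its libraries differed by 1.26-fold at most, and the groups overlapped. LOC104581321, on chromosome 3 (53951601 to 53954917, plus strand), ran from 978 to 1283 CPM over the 9 libraries, a 1.31-fold range. LOC100846063, on chromosome 5 (26449116 to 26455655, minus strand), varied by 1.42-fold, with 1026, 1116 and 1082 CPM in the wild type libraries, 1399, 1288 and 1140 CPM in gf14h-1, and 982, 1046 and 1176 CPM in hdac19-2b, and its gf14h-1 libraries lay just above wild type. At the other end stood LOC100828241, LOC100842929 and LOC100841831, with SDs over all 9 libraries of 0.94, 0.94 and 0.87 in log2 CPM, against 0.12, 0.13 and 0.16 for the 3 steadiest.

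**Figure D4:**
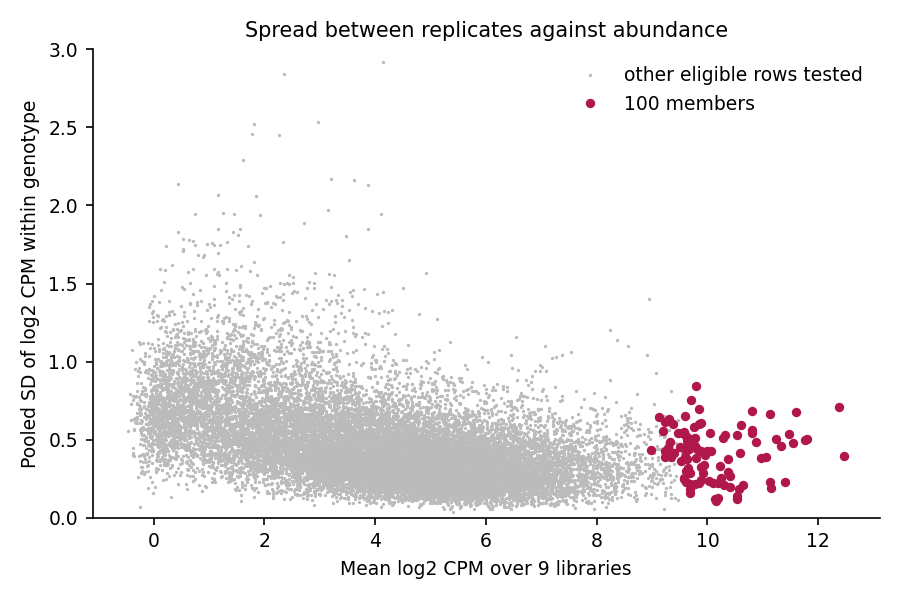
Pooled SD of log2 CPM within a genotype (vertical axis) against the mean log2 CPM over 9 libraries (horizontal axis) for the 100 members and the other eligible rows tested. The spread falls with abundance among the other rows. The members, at the right, have a median SD of 0.43, and the next 100 genes in rank have 0.34. That gap is widest for gf14h-1, at 0.60 against 0.39, and becomes 0.28 against 0.25 once its replicate 3 is left out. For hdac19-2b the medians are 0.26 against 0.23. For wild type, whose libraries chose both sets, the order is reversed, at 0.25 against 0.30.

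The libraries did not fall apart by genotype alone. On the first principal component of the members' log2 CPM, which held 64.2% of the variance, wild type scored 0.26, 0.18 and 0.26, gf14h-1 -0.33, 0.01 and 0.76, and hdac19-2b -0.18, -0.42 and -0.54. Wild type and hdac19-2b lay apart, and the gf14h-1 libraries ran from within the hdac19-2b range to above all wild type libraries, while hdac19-2b replicates 2 and 3 scored below every other library. Since the wild type libraries chose the members, the place of wild type on this component is only a description. gf14h-1 replicate 3 was the highest of the 9 libraries for 62 members, and an hdac19-2b library was the lowest for 57, in 37 of them replicate 3.

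The members had shorter gene spans than most eligible genes. Their median span from first to last annotated base, introns included, was 1980 bases, against 3424 for all eligible rows, and 77 of the 100 lay below that median. A single RefSeq transcript was annotated for 89.0% of the members and 70.7% of eligible rows. By chromosome, 39, 17, 15, 20 and 8 members lay on chromosomes 1 to 5 and 1 on an unplaced sequence, where chromosomes 1 to 5 hold 29.6%, 23.0%, 22.6%, 15.4% and 9.33% of eligible rows. Spans are not transcript lengths, which were not used here, so the order of members is one of reads and not of molecules.

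Gene span moved with the differences between replicates. Across the 100 members, the deviation of gf14h-1 replicate 3 from the other 2 libraries of its genotype had a Pearson correlation with log2 span of -0.73 (-0.48 over 19656 eligible rows tested), and that of gf14h-1 replicate 1 one of 0.69 (0.45). These are descriptions over genes that share their libraries, and genes are not independent replicates. In the 25 members of shortest span (619 to 993 bases) replicate 3 exceeded the other 2 libraries by a median of 1.31 on the log2 scale, and in the next 25 (1024 to 1840 bases) by 1.15. In the 25 after those (2119 to 3317 bases) the median was 0.49, and in the 25 longest (3325 to 59987 bases) it was -0.04.

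The difference between the mutants was likewise larger in short members. From the shortest to the longest 25, the median log2 fold change of gf14h-1 against hdac19-2b was 0.82, 0.86, 0.14 and 0.25. Over the members, its correlation with log2 span was -0.44, against -0.04 over eligible rows, and -0.02 without gf14h-1 replicate 3. A span trend was fitted in each library over 23826 features tested and taken out. The correlation over the members was then -0.21 and the median log2 fold change of the members was 0.45. For hdac19-2b against wild type, the medians before that step were -0.61, -0.90, -0.12 and -0.19. Eligible rows of the same spans had medians of -0.08, 0.04, 0.006 and 0.01. With the span trend taken out, the medians of the members were -0.56, -0.88, -0.13 and -0.21. The part of gene span in the differences between genotypes was not tested beyond these values.

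Split by span, the 50 shortest members held 8.33% ± 0.485 of counts in wild type, 8.38% ± 3.49 in gf14h-1 and 6.02% ± 0.627 in hdac19-2b (SD, n = 3). The 50 longest held 5.997% ± 0.222, 6.09% ± 0.153 and 5.63% ± 0.0396. Between the mutants the shorter set differed by 2.35 percentage points, with an exact two-sided permutation p of 0.3. The longer set differed by 0.457 points without overlap, with an exact two-sided permutation p of 0.1, the smallest that 3 against 3 allows.

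The genes that changed places in the top 100 also differed in span. In hdac19-2b, the 25 rows that entered had a median span of 2636 bases and the 25 members that left one of 1250. The members that stayed there had a median of 2476 bases. In gf14h-1, the 13 rows that entered had a median span of 1437 bases and the 13 that left one of 2476. The members that stayed there had a median of 1492 bases, so in both mutants the entrants were closer in span to those that stayed.

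**Figure D5:**
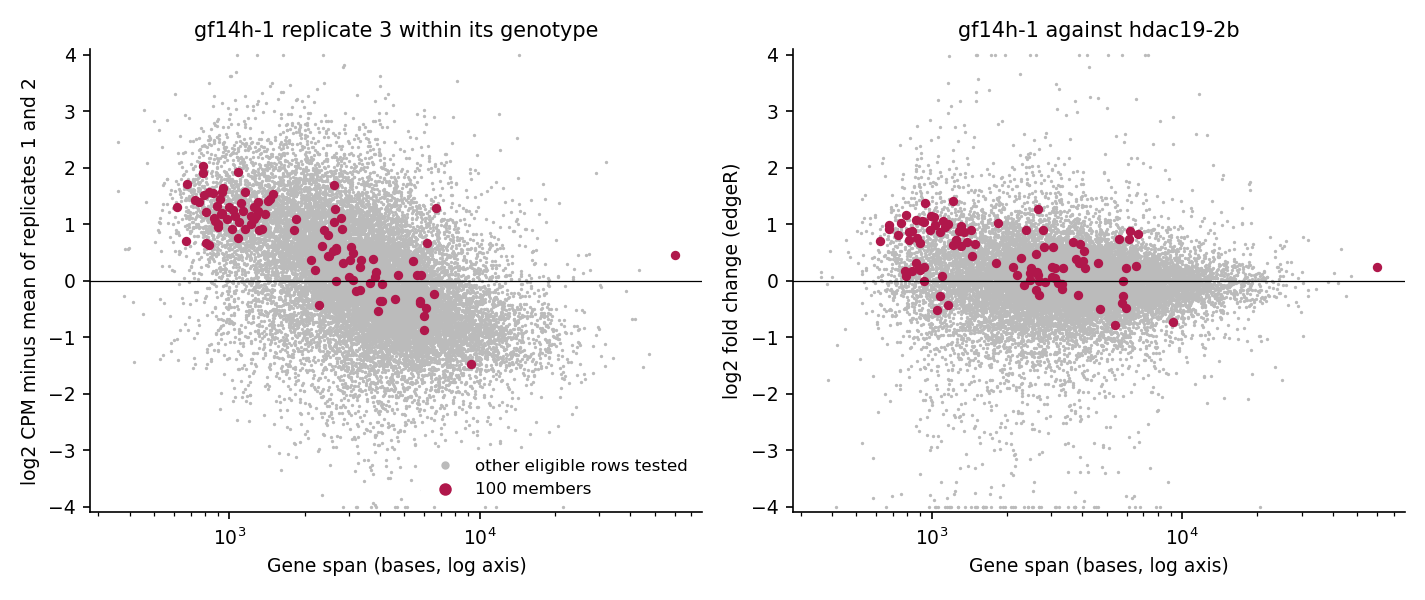
Gene span in bases (log axis) against the log2 CPM of gf14h-1 replicate 3 minus the mean of replicates 1 and 2 (left) and against the log2 fold change of gf14h-1 over hdac19-2b (right), for the 100 members and the other eligible rows tested. Values beyond 4 on either side are drawn at 4. Short members lie above 0 on the left, with a correlation of -0.73 over the members, and most lie above 0 on the right.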

How the data were processed

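RNA was sequenced from whole droughted shoots in 9 libraries, 3 per genotype. Per the labels' protocols, RNA was extracted with TriReagent and libraries followed poly(A) selection (NEBNext). Tools listed in the submitters' processing notes are DESeq2, HISAT2, FastQC 0.11.9 and Partek. Neither their roles nor the build, the counting program or its strand setting is given in the sources used here, so reads of overlapping, antisense or near-identical genes cannot be told apart. The first table deposited by the authors holds estimated counts, part of them fractional, which were rounded to whole numbers (the planned design had assumed raw counts). They also deposited a normalized signal table with annotation, counts divided by 1 size factor per library, which chose the members and from which whole reads came back for 99.9% to 100% of values (to within 0.1).

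The test was a quasi-likelihood fit in edgeR 4.0.16 (R 4.3.3) of genotype over all 9 libraries, with TMM scaling and filterByExpr, which left 23898 of 28607 features and all 100 members. P-values were adjusted with Benjamini-Hochberg over all features, with a threshold of 0.05, and the SE was taken as the size of the log2 fold change over the root of F. The SDs used log2(CPM + 0.5). Shares were compared with an exact permutation test. The fit was tested on simulated counts. Alternatives were DESeq2 1.42.0, its size factors, no filter, 6-library fits, a replicate block, leaving out each library, other list sizes and, added after the data were seen, the recovered reads and a lowess trend on gene span (f = 0.3). Libraries of a genotype differed by more than sampling noise (lowest chi-square over its degrees of freedom 18.0), and the labels name no batch.

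The members and lists were chosen with earlier results of these data known. The functional lists matched no member, since all carry locus numbers only. Named members were the 10 highest in wild type, the 3 with the largest fold change in each direction of each comparison, the 3 with the smallest and the 3 with the largest SD, and the 2 on either side of the threshold; members called by edgeR would have been added. Spans and coordinates are 1-based from the deposited annotation, and 99 of 100 starts match RefSeq's Brachypodium_distachyon_v3.0. The start of LOC100843013 differs.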

Additional observations from a re-analysis of the deposited data

Results flagged for a closer look

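LOC100841796, on chromosome 5 (20158557 to 20162214, minus strand) at rank 23 in wild type, had every gf14h-1 library above and every hdac19-2b library below the wild type range. It held 1446, 1731 and 1613 CPM in the wild type libraries, 1768, 1911 and 1784 CPM in gf14h-1, and 1270, 1057 and 1066 CPM in hdac19-2b. The log2 fold changes against wild type were 0.19 ± 0.20 (SE) and -0.50 ± 0.20 (SE). Between the mutants, the log2 fold change was 0.69 ± 0.20 (SE), higher in 3 of 3 gf14h-1 libraries, with a Benjamini-Hochberg adjusted p of 0.393 (edgeR) and 0.00123 (DESeq2). The gene was named because of this pattern.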

How the results depend on the processing

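Over the alternatives, no member was called for gf14h-1 against wild type (0 of 100) by edgeR or DESeq2. For hdac19-2b against wild type, 11 members were called by the DESeq2 Wald test, 5 in a fit of only the 6 libraries and 8 with the gene-span offset, where 2.24%, 1.02% and 0.957% of all features were called, and 0 to 6 when 1 library was left out. For gf14h-1 against hdac19-2b, DESeq2 called 4 (1.11% of features), and edgeR called 0 whichever library was left out. At an unadjusted p under 0.05, the count for gf14h-1 against wild type, 1, was 2 without the filter, 10 with DESeq2 and 8 with the offset, where 7.51%, 8.49% and 9.46% of all features passed. It was 4 of the 100 highest over all 9 libraries, 7 of the top 200 and 0 to 24 with 1 library left out. The count for hdac19-2b against wild type, 28 (7.19% of features), was 43 in the 6-library fit, where 11.6% of features passed, 16 of the top 50, 43 of the top 200 and 11 to 44 with 1 library left out. The count between the mutants, 38 (9.03% of features), was 18 of the top 50. With 1 library left out it was 14 to 46, where 6.7% and 11.5% of features passed.

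Same-numbered libraries did not deviate together (correlations from -0.177 to 0.0158), so the numbers were not taken as pairs. With the replicate block, 19 members were under an unadjusted p of 0.05 between the mutants, where 6.53% of all features were, against 9.03% without it, and over all features 4, 12 and 2 were called, against 35, 65 and 4 without it (gf14h-1 and hdac19-2b against wild type, then between the mutants). DESeq2 called 339, 563 and 279, the 6-library fits 4, 235 and 1, and the span offset 86, 228 and 3.

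The median log2 fold change of the members for gf14h-1 against wild type turned from 0.0827 to -0.0388 with the span offset and ran from -0.31 to 0.17 with 1 library left out, against 0.21 to 0.57 between the mutants and -0.47 to -0.38 for hdac19-2b. Log2 fold changes of LOC100842305 between the mutants reversed to -0.34 without gf14h-1 replicate 3 (up to 0.27 without replicate 2) and -0.0389 with the offset, and those of LOC100830871 to -0.12 with the block, -0.85 without replicate 3 (up to 0.40 without replicate 2) and -0.26 with the offset; the causes were not tested. With 1 library left out, the share difference between the mutants was 0.814 to 4.18 percentage points, 80 to 86 members were in the top 100 of gf14h-1 and 70 to 73 in that of hdac19-2b, and the median within-genotype SD was 0.29 to 0.50. A choice by the mean over all 9 libraries shared 90 members. The other alternatives kept their direction and side of the threshold, apart from 16 log2 fold changes of single members that passed it under another setting. Depth did not limit the members, of which the smallest count was 966.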
